A study of Mus musculus with 12 samples.

Results

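The 36 genes described here encode the route by which a cell takes up glucose, splits it to pyruvate, exchanges lactate with its neighbours and oxidises pyruvate in the mitochondrion. They were chosen as a list of gene symbols and matched to the Ensembl identifiers of the count table through GENCODE names, which found all 36 among 17579 genes. RNA was sequenced from retina and striatum of R6/1 mice and of wild-type (wt) littermates, all male, on a C57Bl/6 background and 13 to 15 weeks old. R6/1 mice model Huntington's disease through a transgene, exon 1 of the human huntingtin gene with its CAG repeat lengthened, which the wt littermates lack. Each of the 4 groups (wt retina, R6/1 retina, wt striatum, R6/1 striatum) held 3 libraries made from the combined RNA of 3 to 4 mice each, so n = 3 throughout, and an SD measures how pools rather than single mice vary. Both tissues came from the same mice, and they were compared to set the retina of this model beside the brain area most affected in the disease.

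Glucose enters cells through the GLUT transporters, is trapped by hexokinase and committed to breakdown by phosphofructokinase, which fructose-2,6-bisphosphate activates. The pyruvate made is either reduced to lactate by lactate dehydrogenase and carried across membranes by monocarboxylate transporters, or enters the citric acid cycle through the pyruvate dehydrogenase complex, which pyruvate dehydrogenase kinases switch off. Photoreceptors are known for aerobic glycolysis, turning much of their glucose into lactate in the presence of oxygen, whereas neurons of the brain are known to rely on the oxidation of pyruvate and lactate.

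Libraries held 14070445 to 22432431 estimated counts, and the 36 genes took 1.54% to 1.63% of them in wt retina, 1.5005% to 1.58% in R6/1 retina, 0.930% to 0.960% in wt striatum and 0.968% to 0.989% in R6/1 striatum. Levels are CPM, counts scaled to library size, with TMM factors over the 12 libraries, and fold changes are log2 values with their standard error (SE) from edgeR (quasi-likelihood F-test), where a call means a p under 0.05 after adjustment over all genes tested. Both tissues carried their defining markers, with summed rod genes at 78198 to 87256 CPM in wt retina and 7.53 to 11.6 CPM in wt striatum, while Gjb6 and Mog, of astrocytes and oligodendrocytes, were listed at 0 in the retina. Some libraries stood apart. In R6/1 retina 2, Eno3, the muscle enolase gene, was at 43.5 CPM against 12.5 and 14.2 CPM in the other R6/1 retinas, and in R6/1 retina 3 the summed lens genes were at 141 CPM against at most 14.6 CPM in the other retinas. In wt striatum 2, summed genes of cortical excitatory neurons were at 276 CPM against 636 and 717 CPM in the other wt striata, and in R6/1 striatum 2 those of medium spiny neurons were at 2096 CPM against 3685 and 3640.1 CPM. The cortical sum of R6/1 striatum 1 was 258 CPM against 349 and 368 CPM in the other R6/1 striata. In R6/1 striatum 3 the summed genes listed for retinal pigment epithelium were at 141 CPM against 16.5 and 21.3 CPM. The R6/1 striatal mean of that sum, 59.5 CPM, was mostly 1 gene, Ttr (50.1 CPM, against 5.11 CPM in wt striata). Rpe65 of the same list was at a mean of 6.08 CPM in R6/1 and 5.28 CPM in wt striata. Calls among the 36 genes that change without one of these libraries are given with and without it.

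In the R6/1 retina, 9 of the 36 genes fell and 4 rose. The genes that fell encode regulators of phosphofructokinase (Pfkfb2, Pfkfb3), phosphofructokinase itself (Pfkp), steps of lower glycolysis (Aldoc, Pgam1, Eno1, Pkm), lactate dehydrogenase A (Ldha) and the lactate transporter MCT1 (Slc16a1). Those that rose were Tpi1 of glycolysis and 3 genes of pyruvate oxidation and the citric acid cycle, Pdhb, Dlat and Idh3a. Among all 16582 genes tested in the retina 22.3% were called, 12.7% lower and 9.58% higher, and the median log2 fold change of the 36 was -0.07 against 0.01 over all genes. With library totals in place of TMM the median over all genes moved to 0.13 and the split became 6 lower and 10 higher, with Pgam1, Eno1 and Pkm no longer called. That setting called 32.1% of all genes. Values of the 3 R6/1 pools lay wholly below those of wt for 16 members and wholly above for 4, where 23% and 15.3% of all genes did so. Leaving out R6/1 retina 2 gave 8 lower and 4 higher, with Pgam1 lost at an adjusted p of 0.0524 and 21.9% of all genes called. Leaving out R6/1 retina 3 gave 9 lower and 5 higher, with Pgam1 lost, Hk2 and Mdh1 gained and 18.4% of all genes called.

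**Figure D1:**
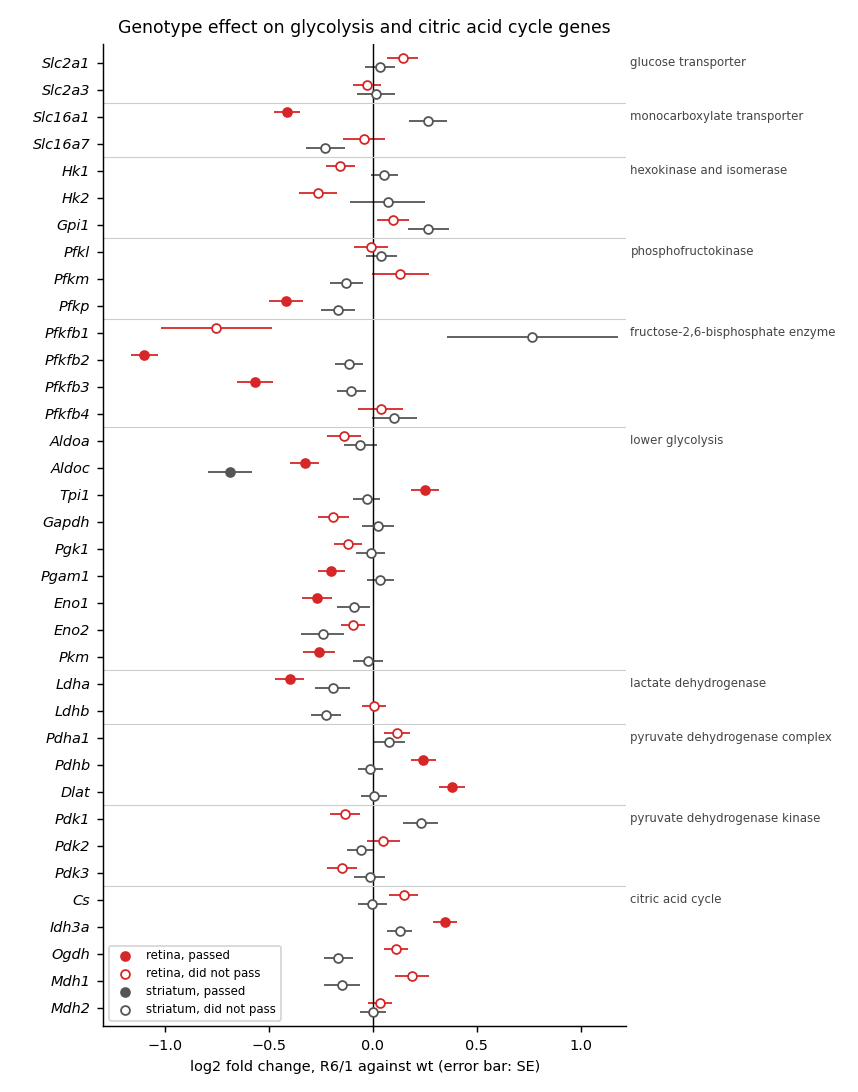
Log2 fold change of R6/1 against wt (x axis) for the 36 genes (y axis, grouped by role), in retina (red) and striatum (grey), with bars for the SE and filled points for an adjusted p under 0.05. Filled red points lie left of 0 for 9 genes of lactate transport and glycolysis and right of 0 for Tpi1, Pdhb, Dlat and Idh3a, and the only filled grey point is Aldoc at -0.69.

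Rod photoreceptor genes moved in the same comparison. All 20 rod markers fell in the R6/1 retina, with a summed level of 78198 to 87256 CPM in wt and 26824 to 36208 CPM in R6/1 pools, and 9 of 10 cone markers fell while Gnb3 rose. Summed genes of Müller glia, the supporting glia of the retina, were at 3605 to 4126 CPM in wt and 3068 to 3395 CPM in R6/1, with Glul called lower, Vim called higher and the other 5 not called. Most of this sum was Glul, whose retinal mean was 2376 CPM in wt and 1803 CPM in R6/1. The R6/1 means of Aqp4 and Dkk3 were also lower, and those of Rlbp1, Slc1a3, Kcnj10 and Vim were higher. Of 9 microglia and macrophage genes 5 rose, from a summed 25.6 to 26.8 CPM to 40.9 to 45.5 CPM. Summed red blood cell genes were at 40.7 to 58.2 CPM in wt and 19.8 to 31.6 CPM in R6/1 retina, with 3 of 5 called lower, and at 124 to 164 and 83.4 to 96.4 CPM in the striatum, with 2 of 5 called lower. The part of these shifts in the results below was not tested, and in bulk tissue fewer cells of a type cannot be told apart from less RNA per cell.

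Pfkfb2 showed the largest change of the 36. It encodes a bifunctional enzyme that makes and removes fructose-2,6-bisphosphate. Its level was 529, 523 and 500.5 CPM in the wt retinas and 236, 217 and 256 CPM in the R6/1 retinas. Every R6/1 pool lay below every wt pool by a wide margin, and the mean fell from 518 ± 15.1 to 236 ± 19.3 CPM, 2.14-fold lower (log2 -1.10, SE 0.07, adjusted p = 7.49e-09). Its paralog Pfkfb3, the isoform with the strongest kinase activity, was at 36, 30.4 and 33.8 CPM in wt and 20.8, 22.2 and 23.3 CPM in R6/1 retinas. These groups did not overlap either, and Pfkfb3 fell 1.48-fold (log2 -0.57, SE 0.09, adjusted p = 0.000118). Pfkfb1, the isoform known from liver and muscle, rested on 18 to 38 counts per retinal library and did not pass (log2 -0.75, SE 0.27, adjusted p = 0.0514), and Pfkfb4 was at 0.04 with an SE of 0.11. The enzyme that fructose-2,6-bisphosphate activates has 3 subunit genes in mouse. Pfkp, the platelet type, was at 928, 1054 and 903 CPM in wt and 625, 743 and 747 CPM in R6/1 retinas, again without overlap, and fell 1.34-fold (log2 -0.42, SE 0.08, adjusted p = 0.00137). The liver type Pfkl (-0.01, SE 0.08) and the muscle type Pfkm (0.13, SE 0.14) were not called.

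The promoters of 4 genes that fell are shown because they share a sequence. RefSeq promoter windows on GRCm38.p6, running from 250 bases before to 50 bases after an annotated transcription start site, were found for 33 of the 36 genes, in 57 windows, and not for Slc2a3, Slc16a7 and Idh3a. The genes lie at chr1:130689182-130729253, minus strand (Pfkfb2), chr2:11471433-11554077, minus strand (Pfkfb3), chr3:104638668-104658462, plus strand (Slc16a1) and chr7:46841475-46855627, plus strand (Ldha) in the GENCODE annotation of GRCm38, and the windows shown for Pfkfb2, Pfkfb3 and Ldha lie within these bounds, at start sites other than the outermost. All windows were searched on both strands for CACGTG, the palindromic E-box known to be bound by Myc and by the clock factors, and for TAATCC, the core known to be bound by the photoreceptor factor CRX, both picked with the expression results known. Neither contains the other, though their ends can share a base. CACGTG was present in 7.15% of all 32851 windows and in 8.09% of 27025 genes, and in 9 of the members' 57 windows (15.8%, overlapping windows of a gene included), which belong to 7 of the 33 members (21.2%). Members had more windows per gene than genes at large. Of these 7, the 4 genes Pfkfb2, Pfkfb3, Slc16a1 and Ldha are among the 9 that fell in the R6/1 retina, and the others are Pfkm, Pdk2 and Ogdh. TAATCC was present in 7.06% of windows and 8.14% of genes, and in 7 members (21.2%), of which Pfkp, Aldoc and Ldha fell. None of the 3 risen genes with a window held either sequence. These are matches of letters and no binding was measured. Pfkfb2, Pfkfb3 and Ldha also had windows at other start sites, which held no CACGTG, and which start site the retina uses was not examined. In the windows below, capitals mark CACGTG, whose first base lies at -22 from the start site in Pfkfb2, -53 in Pfkfb3, -200 in Slc16a1, and -145 and -48 in Ldha.
Pfkfb2 promoter, chr1:130715772-130716071, minus strand: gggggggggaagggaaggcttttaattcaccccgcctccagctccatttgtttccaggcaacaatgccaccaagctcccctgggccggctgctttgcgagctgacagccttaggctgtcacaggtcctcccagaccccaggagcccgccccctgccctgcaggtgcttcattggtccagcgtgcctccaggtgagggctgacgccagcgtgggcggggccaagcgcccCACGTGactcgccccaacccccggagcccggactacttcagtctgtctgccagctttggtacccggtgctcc
Pfkfb3 promoter, chr2:11502041-11502340, minus strand: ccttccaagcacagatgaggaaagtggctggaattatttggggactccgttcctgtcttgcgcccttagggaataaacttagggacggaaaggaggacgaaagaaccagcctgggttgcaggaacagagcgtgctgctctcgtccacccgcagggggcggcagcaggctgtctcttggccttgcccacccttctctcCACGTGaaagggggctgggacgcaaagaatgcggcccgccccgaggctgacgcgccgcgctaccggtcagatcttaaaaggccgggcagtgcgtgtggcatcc
Slc16a1 promoter, chr3:104638414-104638713, plus strand: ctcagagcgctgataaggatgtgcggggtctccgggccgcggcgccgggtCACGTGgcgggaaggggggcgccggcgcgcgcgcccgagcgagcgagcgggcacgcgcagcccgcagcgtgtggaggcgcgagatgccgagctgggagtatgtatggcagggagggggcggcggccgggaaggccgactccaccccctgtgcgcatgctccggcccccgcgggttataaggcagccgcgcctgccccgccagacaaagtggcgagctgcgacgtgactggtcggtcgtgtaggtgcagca
Ldha promoter, chr7:46845554-46845853, plus strand: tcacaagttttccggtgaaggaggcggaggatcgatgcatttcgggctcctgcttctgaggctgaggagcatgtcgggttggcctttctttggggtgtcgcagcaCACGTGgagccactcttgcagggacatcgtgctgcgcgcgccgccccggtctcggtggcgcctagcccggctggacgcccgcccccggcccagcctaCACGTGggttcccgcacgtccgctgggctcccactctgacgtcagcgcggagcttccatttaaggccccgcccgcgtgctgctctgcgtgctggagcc

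In both families that handle lactate 1 member fell and the other was not called. Slc16a1 encodes MCT1, which carries lactate and pyruvate with a proton. It was at 274, 290.1 and 275 CPM in the wt retinas and 216, 192 and 207 CPM in the R6/1 retinas. All R6/1 pools were below all wt pools, a 1.33-fold fall (log2 -0.42, SE 0.06, adjusted p = 0.000114). Slc16a7, which encodes the high-affinity neuronal transporter MCT2, was at 28.0, 23.9 and 24.8 CPM in wt and at 22.6, 27.6 and 22.6 CPM in R6/1, with overlapping groups (-0.04, SE 0.10). Ldha, whose subunit is known to favour the making of lactate, was at 734, 837 and 786 CPM in wt and 614, 548 and 585 CPM in R6/1. The groups did not overlap and Ldha fell 1.32-fold (log2 -0.40, SE 0.07, adjusted p = 0.000562). Ldhb, whose subunit is known to favour its use, was at 120.1 to 123 CPM in wt and 115 to 125 CPM in R6/1 pools and was not called (0.01, SE 0.06).

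Glucose entry and the first steps gave no call in the retina. Slc2a1, the gene of GLUT1, was at 102 to 119.5 CPM in wt and 109 to 130.3 CPM in R6/1 pools (0.14, SE 0.07), and Slc2a3, of the neuronal GLUT3, at 69.7 to 78.3 and 67.1 to 73.5 CPM (-0.03, SE 0.07). Hk1, the general hexokinase of neural tissue, and Hk2, the inducible one that photoreceptors use, had all R6/1 pools below all wt pools but did not pass, at -0.16 (SE 0.07, adjusted p = 0.118) and -0.26 (SE 0.09, adjusted p = 0.059). Hk2 and Gapdh passed with DESeq2, which called 11 members lower and 4 higher, and 18.5% of all genes. Gpi1, glucose-6-phosphate isomerase, was at 0.10 with an SE of 0.08.

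Of the 9 genes of lower glycolysis 4 fell, 1 rose and 4 were not called in the retina. Aldoc, the aldolase of brain and glia, was at 312, 307 and 344 CPM in wt and 239.6, 235 and 277 CPM in R6/1 pools. Its groups were apart and it fell 1.26-fold (log2 -0.33, SE 0.07, adjusted p = 0.0026). Eno1, the general enolase, was at 1528, 1571 and 1674 CPM in wt and 1316, 1212 and 1343 CPM in R6/1. It fell 1.21-fold without overlap (log2 -0.27, SE 0.07, adjusted p = 0.0122), a call lost without wt retina 3 (adjusted p = 0.063). Pkm, pyruvate kinase of most tissues, and Pgam1, phosphoglycerate mutase, fell less, by 0.26 (SE 0.08, adjusted p = 0.0245) and 0.20 (SE 0.07, adjusted p = 0.036) on the log2 scale, and lost their call in 4 and 6 of 16 alternatives. Pkm was lost without wt retina 2, wt retina 3 or R6/1 retina 1, and Pgam1 without any single library other than wt retina 1. Tpi1, triosephosphate isomerase, went the other way and rose by 0.25 (SE 0.07, adjusted p = 0.0145), a call lost without wt retina 1 (adjusted p = 0.0991) or wt retina 3 (adjusted p = 0.0661). Gapdh, Aldoa, Pgk1 and Eno2 lay between -0.19 (Gapdh, SE 0.08) and -0.10 (Eno2, SE 0.06) and did not pass. Estimates of genes with near-identical copies are uncertain, since they depend on how reads were divided between the copies. The share of 31-base words of the transcripts that other genes also hold was 68.3% for Pgk1, 62.6% for Gapdh, 53.5% for Eno1, 42.1% for Pgam1, 34.8% for Pkm 16.6% for Tpi1, 24.3% for Pfkfb2, 22.3% for Ldha and 33% for Ldhb, and no word of Aldoc, Slc16a1, Dlat or Idh3a was shared.

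**Figure D2:**
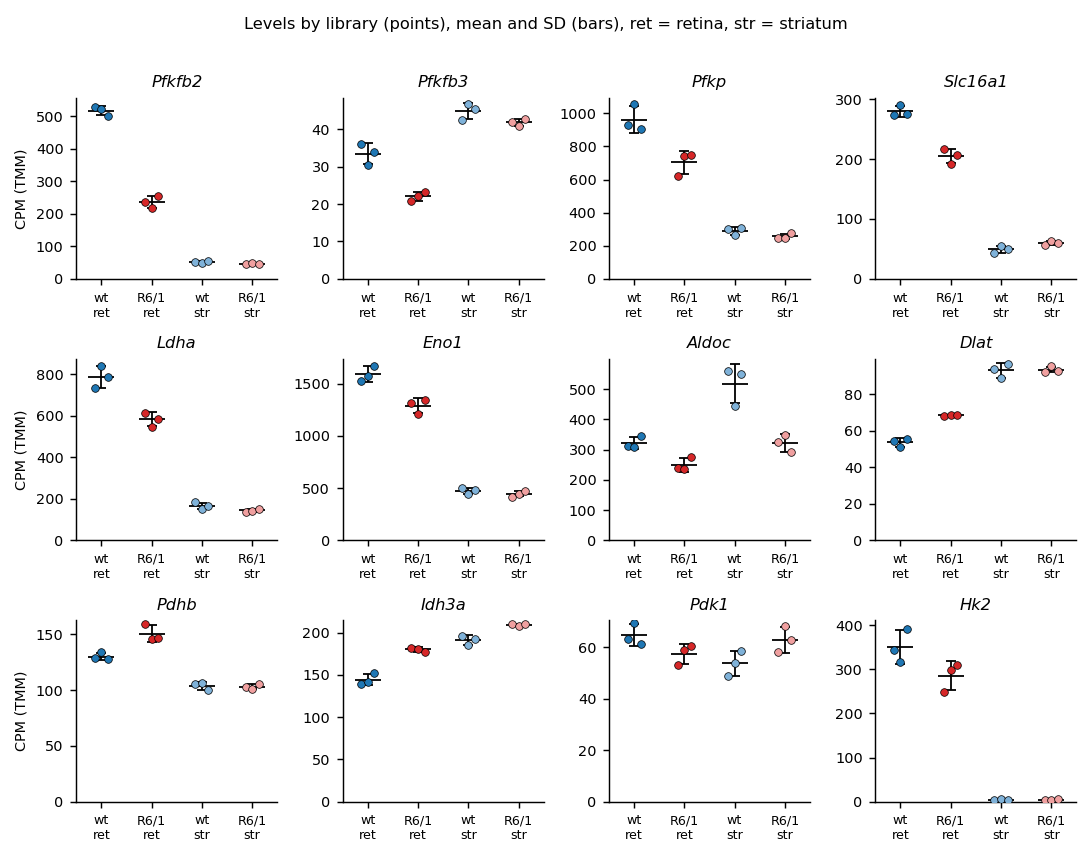
CPM with TMM scaling (y axes, from 0) of 12 genes in each library (points), with the mean and SD of each group (bars), for wt and R6/1 retina (ret) and striatum (str). The 3 R6/1 retinas lie below the 3 wt retinas for Pfkfb2, Pfkfb3, Pfkp, Slc16a1, Ldha, Eno1 and Aldoc, and above them for Dlat, Pdhb and Idh3a.

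Of the 3 genes of the pyruvate dehydrogenase complex 2 rose. Dlat, the acetyltransferase core of the pyruvate dehydrogenase complex, was at 54.4, 50.9 and 55.7 CPM in wt and 68.0, 68.5 and 68.9 CPM in R6/1 retinas. The R6/1 pools were nearly equal and all above wt, and Dlat rose 1.30-fold (log2 0.38, SE 0.06, adjusted p = 0.000355). Pdhb, the beta subunit of the decarboxylase of the same complex, was at 129, 134 and 128 CPM in wt and 159.6, 146 and 146 CPM in R6/1. It rose 1.18-fold without overlap (log2 0.24, SE 0.06, adjusted p = 0.00772), with 41.9% of its 31-base words shared with 1 other gene, Gm6123. Pdha1, the partner alpha subunit and the target of the kinases, was not called (0.12, SE 0.06). Nor were the kinases Pdk1 (-0.14, SE 0.07), Pdk2 (0.05, SE 0.08) and Pdk3 (-0.15, SE 0.07). Idh3a, the catalytic subunit of NAD-dependent isocitrate dehydrogenase, was at 139, 142 and 152 CPM in wt and 182, 181 and 177 CPM in R6/1 retinas. All R6/1 values exceeded all wt values, and Idh3a rose 1.27-fold (log2 0.35, SE 0.06, adjusted p = 0.000325). The other 4 genes grouped under the cycle were citrate synthase (Cs), 2-oxoglutarate dehydrogenase (Ogdh), mitochondrial malate dehydrogenase (Mdh2) and its cytosolic form (Mdh1), which lies outside the cycle itself. They had positive estimates from 0.04 (Mdh2, SE 0.06) to 0.19 (Mdh1, SE 0.08) that did not pass. Pfkfb2, Pfkfb3, Slc16a1, Ldha, Pfkp, Aldoc, Dlat, Idh3a and Pdhb kept their retinal call at 0.05 in each of 16 alternatives.

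In the striatum of the same mice 1 of the 36 genes passed. Aldoc was at 559.6, 446 and 551 CPM in the wt striata and 325, 349 and 292 CPM in the R6/1 striata. The groups did not overlap, wt striatum 2 was the lowest of the wt pools, and Aldoc fell 1.61-fold (log2 -0.69, SE 0.11, adjusted p = 0.0229). Among all 16728 genes tested in the striatum 1.45% were called, 1.32% lower and 0.132% higher, and the median of the 36 was -0.01 against 0.01 over all genes. R6/1 pools lay wholly below wt for 4 members and wholly above for 4, where 12.7% and 12.8% of all genes did so. Astrocytes are the cells in which brain Aldoc is mainly found. Their markers summed to 4096 to 5219.8 CPM (wt striata) and 3385 to 3492 CPM (R6/1 striata), with 0 of 6 called. Most of this sum was Slc1a2, whose striatal mean was 4299 CPM (wt) and 2988 CPM (R6/1). The R6/1 means of Gja1, Aldh1l1 and Gjb6 were also lower. Those of S100b (146 against 110 CPM) and Gfap (70.7 against 67.7 CPM) were higher. Outside these 6, Glul of the Müller glia list was called lower in the striatum, and the other 6 genes of that list were not called. The striatal mean of Glul was 1592 CPM (wt) and 1124 CPM (R6/1). Markers of medium spiny neurons, the main striatal neuron, summed to 6008 to 8477 CPM (wt) and 2096 to 3685 CPM (R6/1), with 2 of 14 called lower. The part of either cell type in the Aldoc result was not tested.

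How many striatal genes pass turns on the tool, the libraries and the pairing. DESeq2 called 5.87% of all genes and 1 fit of all 12 libraries 7.77%, against 1.45% in the main fit. Of the 36, DESeq2 called Aldoc alone, and the single fit Aldoc and Ldhb, all lower. With replicate number as a block, a pairing taken from correlations in these data and not stated by the labels, Aldoc, Eno2 and Ldhb were lower and Slc16a1 higher. In that fit 9.94% of all genes were called. Without wt striatum 2, whose cortical marker sum was low, Aldoc, Eno2, Ldhb and Slc16a7 were lower and Gpi1 and Slc16a1 higher, with 11.6% of all genes called, and without R6/1 striatum 2 Aldoc alone was lower. Without wt striatum 1, wt striatum 3, R6/1 striatum 1 or R6/1 striatum 3 none of the 36 passed, and the adjusted p of Aldoc was 0.151, 0.131, 0.105 and 0.104. The unblocked values of the genes named were -0.24 (SE 0.10) for Eno2, the neuronal enolase, -0.23 (SE 0.07) for Ldhb, 0.27 (SE 0.09) for Slc16a1, -0.23 (SE 0.09) for Slc16a7 and 0.27 (SE 0.10) for Gpi1. Outside Pfkfb1, which had 5 to 19 counts per striatal library, the 34 remaining members had estimates between -0.24 and 0.27.

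The genotype effect itself differed between tissues for 5 of the 36 genes. It was lower in the retina for Pfkfb2, Slc16a1, Pfkfb3 and Pfkfb1 and higher for Dlat, where 8.24% of 15731 genes tested differed, 4.86% lower and 3.38% higher. The median difference of the 36 was -0.09 against -0.02 over all genes. Pfkfb2, which fell in the retina, was at 50.7, 48.8 and 53.8 CPM in wt and 46.2, 48.3 and 47.3 CPM in R6/1 striata. The R6/1 striata lay just below the wt striata and the gene was not called there (-0.11, SE 0.07), and the difference was -1.02 (SE 0.10, adjusted p = 4.13e-05). Slc16a1 was at 43.9, 55.3 and 49.1 CPM in wt and 56.4, 62.7 and 59.4 CPM in R6/1 striata. There the R6/1 pools lay above the wt pools, the reverse of the retina, and the difference was -0.71 (SE 0.11, adjusted p = 0.00145). Pfkfb3 was at 42.4, 46.8 and 45.5 CPM in wt and 42.0, 40.8 and 42.7 CPM in R6/1 striata, with overlapping groups and a difference of -0.49 (SE 0.11, adjusted p = 0.0126). Dlat was at 93.8, 88.9 and 96.6 CPM in wt and 92.5, 95.3 and 93.0 CPM in R6/1 striata, also overlapping, with a difference of 0.34 (SE 0.08, adjusted p = 0.0175). These 4 differences passed at 0.05 in each of 22 alternatives, and at a threshold of 0.01 Pfkfb2 and Slc16a1 did. Without wt striatum 2 the count was 3 lower and 4 higher, with Mdh1, Aldoc and Ogdh gained and Pfkfb1 lost, and 12.8% of all genes called.

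Pfkfb1 and Pdk1 stood at the edge of the threshold. Pfkfb1 was at 2.41, 2.41 and 2.13 CPM in wt and 0.982, 1.49 and 1.55 CPM in R6/1 retinas, and at 0.299, 0.407 and 0.491 CPM in wt and 0.558, 0.817 and 0.660 CPM in R6/1 striata. R6/1 pools lay below wt in the retina and above wt in the striatum, and the difference was -1.56 (SE 0.45, adjusted p = 0.0445) on counts of at most 38. It was lost in 17 of 22 alternatives, among them each library left out in turn, with adjusted p from 0.0531 to 0.112. Pdk1, a kinase that HIF-1 is known to induce, was at 63.1, 69.3 and 61.1 CPM in wt and 52.9, 58.9 and 60.3 CPM in R6/1 retinas, and at 48.9, 53.6 and 58.4 CPM in wt and 58.0, 68.1 and 62.7 CPM in R6/1 striata. Its retinal groups did not overlap and its striatal groups did, and the difference of -0.40 (SE 0.12) missed the threshold at an adjusted p of 0.0527. It passed in 4 of 22 alternatives, among them without R6/1 striatum 1. Aldoc, called in both tissues, had a difference of 0.33 (SE 0.14) that did not pass (adjusted p = 0.164) and passed without wt striatum 2.

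Between wt retina and wt striatum 20 of the 36 genes were higher in the retina, 15 lower and Pdk3 not called, where 76.3% of 16864 genes tested differed, 37.8% higher and 38.5% lower, and the median of the 36 was 0.30 against -0.0044 over all genes. Hk2 differed most, at 343, 317 and 391 CPM in the wt retinas and 3.77, 5.50 and 4.60 CPM in the wt striata. This is a 75.0-fold higher level in retina (log2 6.23, SE 0.14, adjusted p = 1.68e-11). It was followed by Pfkfb2, 10.1-fold higher in retina (3.34, SE 0.07), Pfkfb1 at 5.71-fold (2.51, SE 0.32) and Slc16a1 at 5.64-fold (2.49, SE 0.09). Ldha was at 182, 149 and 164 CPM in the wt striata, 4.75-fold below retina (2.25, SE 0.09), and Eno1 at 501, 443 and 480.3 CPM, 3.34-fold below (1.74, SE 0.08). None of these 6 differences lost its call in 17 alternatives, though between the R6/1 tissues Pfkfb2 was at 2.33, Slc16a1 at 1.79 and Pfkfb1 at 0.97. Higher in the retina were also Pfkp (1.73), Pkm (1.52), Hk1 (1.32), Pfkl (1.30), Gapdh (0.92) and Pgk1 (0.87), each with an SE of 0.08 or 0.09.

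Genes lower in wt retina than in wt striatum were led by Ldhb (-1.52, SE 0.07), Pfkm (-1.41, SE 0.11) and Slc16a7 (-1.34, SE 0.10). Each belongs to a family with another member higher in the retina, as did Slc2a3 (-0.90), Eno2 (-0.85), Aldoc (-0.69) and Pdk2 (-0.77). All 5 genes grouped under the citric acid cycle, cytosolic Mdh1 included, were lower in retina, from -0.83 for Cs (SE 0.08) to -0.31 for Mdh2 (SE 0.06). Pdha1 (-0.90, SE 0.08) and Dlat (-0.80, SE 0.07) were lower too. Pdhb was higher (0.32, SE 0.06). Pdk1 was higher by 0.26 (SE 0.08, adjusted p = 0.013) in wt but at -0.12 between the R6/1 tissues (adjusted p = 0.189), and its call in wt was lost without wt retina 2 (adjusted p = 0.0617) or wt striatum 1 (adjusted p = 0.0529). Pfkfb4 passed narrowly (0.27, SE 0.11, adjusted p = 0.0353) and was lost with replicate number as a block, with DESeq2 and without any single wt library other than wt striatum 1.

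**Figure D3:**
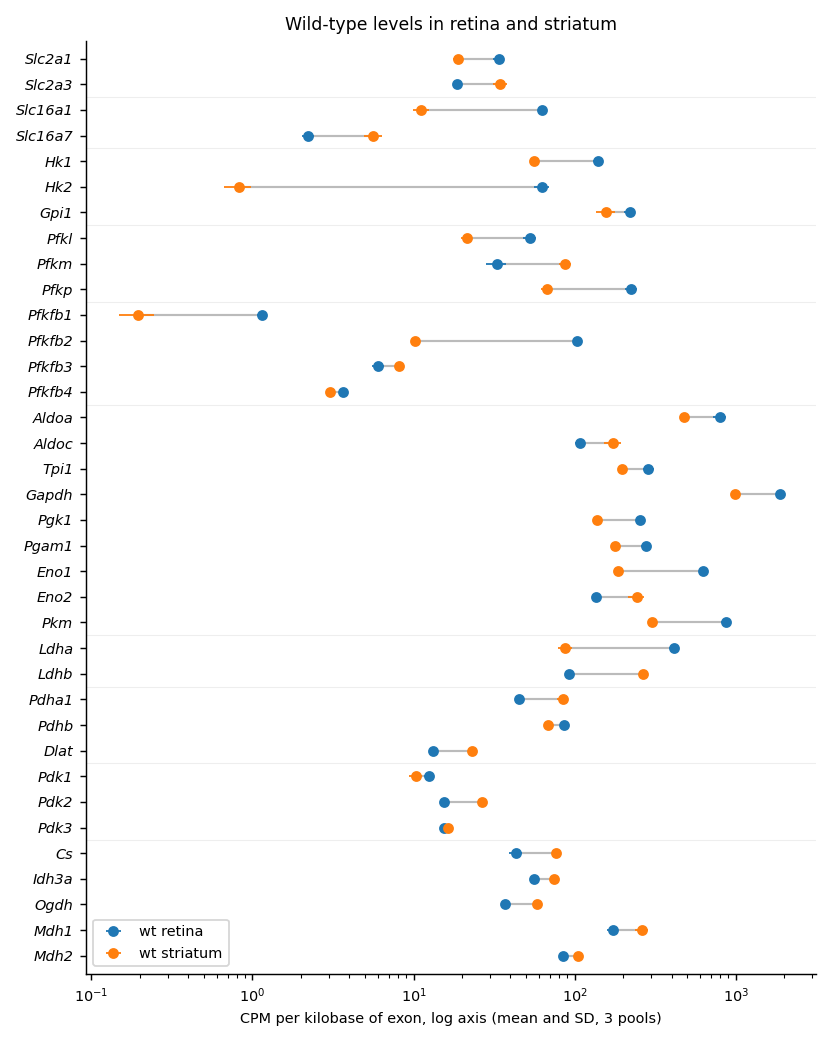
CPM per kilobase of exon (x axis, log scale) of the 36 genes (y axis) in wt retina (blue) and wt striatum (orange), as mean and SD of 3 pools joined by a line. Hk2 spans the widest gap, from 0.823 in striatum to 62.4 in retina, and the 5 genes grouped under the citric acid cycle at the bottom all lie further right in striatum.

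Per kilobase of exon, different genes can be set beside each other, though only roughly. The length merges all annotated exons of a gene, and which transcripts were expressed was not examined. On this scale Gapdh led in both tissues, at 1886 ± 89.3 CPM per kb in wt retina and 998 ± 37.1 CPM per kb in wt striatum. In the retina Pkm (877 ± 63.5), Aldoa (801 ± 72.2), Eno1 (625 ± 29.4) and Ldha (415 ± 27.1) came next, with Pkm and Aldoa within their spread of each other. In the striatum the order was Aldoa (479.7 ± 12.5), Pkm (304 ± 3.81), Ldhb (265 ± 12), Mdh1 (261 ± 25.6) and Eno2 (243 ± 27.0), the last 3 within their spread. Of the regulators Pfkfb2 stood at 103 ± 3.01 CPM per kb in wt retina, against 6.05 ± 0.509 for Pfkfb3, 3.65 ± 0.0628 for Pfkfb4 and 1.14 ± 0.0792 for Pfkfb1. In wt striatum Pfkfb2 at 10.2 ± 0.508 and Pfkfb3 at 8.13 ± 0.403 CPM per kb were close. Pfkfb1 was the lowest of the 36 in both tissues.

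The balance between isozymes was taken as the log2 ratio of their counts within each library, which no scaling between libraries affects, and is given without a test. The sign of such a ratio also depends on the lengths of both transcripts, so that only its differences between libraries are compared. Ldhb to Ldha was -2.58, -2.80 and -2.71 in wt retinas and 0.96, 1.14 and 1.12 in wt striata, above every retina. In R6/1 retinas it was -2.30, -2.25 and -2.33, above every wt retina, while R6/1 striata at 0.98 to 1.14 overlapped wt. Per kilobase of exon, Ldha led Ldhb in wt retina (415 ± 27.1 against 92.8 ± 1.29 CPM per kb) and Ldhb led Ldha in wt striatum (265 ± 12 against 87.1 ± 8.70). The order of means also turned for Eno1 and Eno2, for Slc2a1 and Slc2a3, for Pfkp and Pfkm and for Pfkl and Pfkm. The gene named first led in retina and the other in striatum. Slc16a1, Hk1, Aldoa and Pdk2 stayed above Slc16a7, Hk2, Aldoc and Pdk1 in both tissues. For Pdk1 and Pdk2 the order in wt retina rests on their merged exon lengths, 5185 and 2246 bases. In counts Pdk1 led there (log2 ratio 0.74 to 0.99).

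Within the retina 6 of the 9 ratios did not overlap between genotypes. Among all single genes tested in the retina, the R6/1 pools lay wholly below wt for 23% and wholly above for 15.3%. In the striatum these shares were 12.7% and 12.8%, and no share over gene pairs was computed. Pfkp to Pfkm was 3.01 to 3.65 in wt and 2.63 to 2.80 in R6/1, and Aldoc to Aldoa -2.30 to -2.07 and -2.42 to -2.34. Eno2 to Eno1 (-2.13 to -2.01 against -1.96 to -1.82) and Slc16a7 to Slc16a1 (-3.60 to -3.29 against -3.26 to -2.80) stood higher in R6/1. Slc2a3 to Slc2a1 (-0.61 to -0.55 against -0.83 to -0.70) stood lower, though neither gene was called. Hk2 to Hk1, at -0.96 in wt and -1.07 in R6/1 retinas, overlapped. In the striatum Aldoc to Aldoa (-0.93 to -0.67 in wt, -1.57 to -1.16 in R6/1), Slc16a7 to Slc16a1 (0.00 to 0.64 and -0.20 to -0.05), Pfkl to Pfkm (-1.82 to -1.65 and -1.63 to -1.47) and Pdk1 to Pdk2 (-0.32 to -0.03 and 0.08 to 0.17) did not overlap. Slc16a7 to Slc16a1 thus moved in opposite directions in the tissues.

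**Figure D4:**
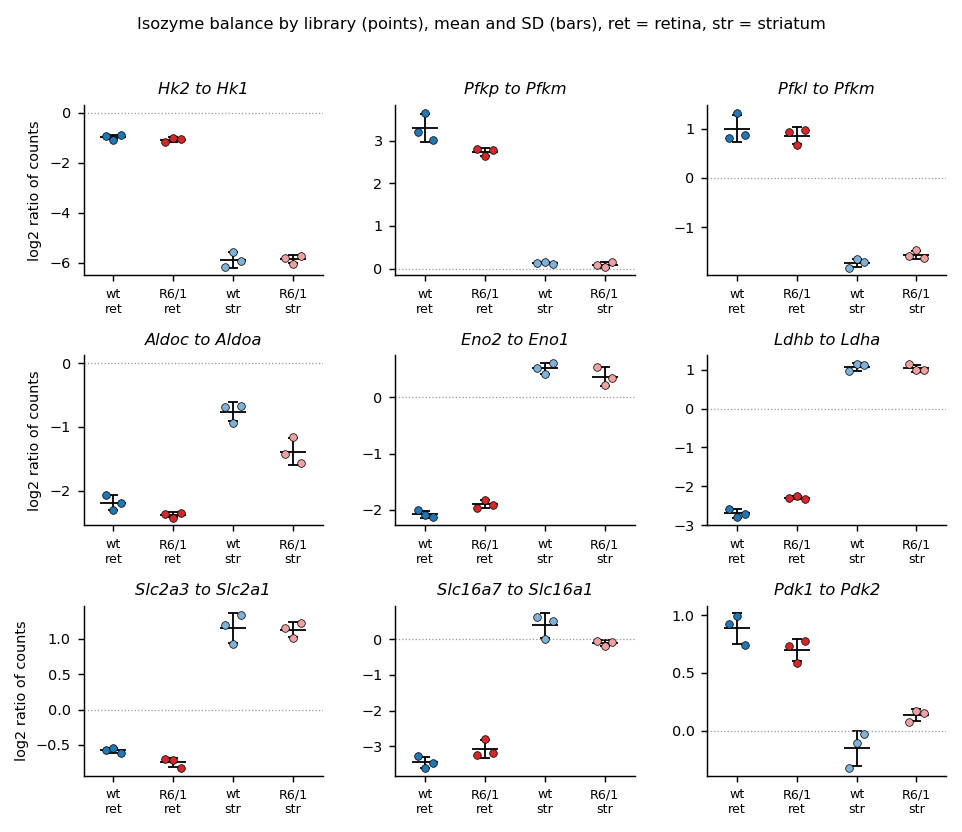
Log2 ratio of the counts of 9 isozyme pairs (y axes, one scale per panel, dotted line at 0) in each library (points), with group mean and SD (bars). Ldhb to Ldha averages -2.70 in wt retina, -2.29 in R6/1 retina and 1.07 in wt striatum, and Hk2 to Hk1 separates the tissues by more than any genotype difference.

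A wider list of 44 further genes of these pathways, of which 40 were in the table, had 4 genes lower and 5 higher of 39 tested in the retina, with a median of 0.11, where 22.3% of all genes were called. Among the lower ones were Idh1, the cytosolic NADP-dependent isocitrate dehydrogenase (-0.31, SE 0.06, adjusted p = 0.00207), Tigar, which lowers fructose-2,6-bisphosphate (-0.20, SE 0.07), and Mpc2, of the mitochondrial pyruvate carrier (-0.22, SE 0.07). Higher were Idh3g, a regulatory partner of Idh3a (0.32, SE 0.07, adjusted p = 0.00542), Sdhd, of succinate dehydrogenase (0.32, SE 0.09, adjusted p = 0.0139), Idh2, Suclg1 and Pdhx, the last a structural part of the pyruvate dehydrogenase complex (0.24, SE 0.07). In the striatum 1 of 38 passed, Pdp1, the phosphatase that switches the pyruvate dehydrogenase complex back on. It was at 209, 162 and 190.0 CPM in wt and 106, 111 and 106 CPM in R6/1 striata, without overlap (-0.80, SE 0.09, adjusted p = 0.0114), and was not called in the retina (0.10, SE 0.08). Ldhd, a mitochondrial D-lactate dehydrogenase gene, came next but did not pass (-0.70, SE 0.17, adjusted p = 0.0842).

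The difference of genotype effects passed for 4 of 37 wider genes, all higher in the retina, where 8.24% of all genes differed, among them Pdp1 (0.86, SE 0.13, adjusted p = 0.000899) and Sdhb, a further succinate dehydrogenase subunit (0.37, SE 0.09, adjusted p = 0.0246), with Suclg1 at 0.32. Between wt tissues 12 of 38 were higher in retina and 19 lower, where 76.3% of all genes differed. Pdk4, the kinase induced by fasting, was at 0.366 to 0.536 CPM in wt retina and 14 to 16.9 CPM in wt striatum (-5.04, SE 0.20), and Slc16a3, of the lactate exporter MCT4, at 18.3 to 20.6 and 1.97 to 2.21 CPM (3.21, SE 0.13). Slc16a8, of the pigment epithelial transporter MCT3, was at 0.561 to 1.98 CPM in wt retina and listed at 0 in the striatum, beside retinal pigment epithelium markers summing to 102 to 129.9 CPM in wt retina. Gapdhs, Pklr, Ldhc and Fbp2 were not analysed here.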

How the data were processed

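RNA from pools of 3 to 4 mice was preserved in RNAlater, extracted with TRIzol and RNeasy, made into stranded TruSeq mRNA libraries and sequenced as read pairs on a NovaSeq. The authors trimmed reads with Trimmomatic and deposited estimated counts per gene from Salmon, with CASAVA, GRCm38 and mm10 also named in the submitters' processing notes and no versions given in the sources used here. They had removed genes with low counts (no gene in the table sums to under 10 counts over the libraries), used DESeq2 for their tests, and left the deposited values unscaled. Salmon shares reads of near-identical transcripts between them by estimate, so genes with close copies carry an error that the counts do not show.

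The estimated counts, whole numbers as deposited, were tested with the quasi-likelihood F-test of edgeR 4.0.16 (R 4.3.3), with TMM scaling, a robust spread and genes of at least 10 counts over the libraries compared, within each tissue for genotype, over all 12 libraries for the difference of genotype effects, and over the wt libraries for tissue. Adjustment was by Benjamini-Hochberg over all genes tested, and the SE is the size of the log2 fold change divided by the root of F. In the retina fitted log2 values exceeded CPM ratios by a median of 0.03, since scaling was done within tissue. Groups came from the sample labels, all columns were mapped (0 unmapped), and depth was 14070445 to 22432431 counts per library. The 36 genes, the marker lists, the wider pathway list and the motifs were chosen with earlier results of these data known.

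Values in each library are given for the 10 genes with the smallest p in the retina, those called in the striatum (at most 6), the 6 with the smallest p for the difference and the 6 with the largest difference between wt tissues. Of the wider list, the 4 with the smallest p in the retina and 2 in each other comparison were named, except for an item that is not reported here. Others that passed or that an alternative added are named by fold change. The symbol Aldoa matched 2 identifiers, and the one with at most 16 counts per library was left out. Results were recomputed with limma-voom (limma 3.58.1), with DESeq2 1.42.0 and its size factors alone, with library totals, TMM without rod and cone genes, no filter, filterByExpr, a non-robust spread, 1 fit of all libraries, replicate number as a block, each library or both striatal libraries numbered 2 left out, R6/1 in place of wt tissues, and a threshold of 0.01. Whether replicate numbers pair the libraries was checked by correlating deviations from group means over 10445 genes: same-numbered striatal pools gave 0.274, 0.329 and 0.257, all above 0.1 and taken as paired, and retinal pools 0.124, -0.094 and 0.051, not taken as paired. Differently numbered striatal pools gave -0.389 to 0.24, the highest for wt striatum 1 with R6/1 striatum 3. The cut-off of 0.1 was applied to the counts that were then tested, and wt and R6/1 pools held different mice. Retina and striatum with the same number gave 0.242, 0.119 and 0.179 in R6/1 and -0.026, 0.019 and 0.001 in wt, and whether equal numbers mark the same pool of mice in both tissues was not stated, so the difference and the tissue comparison were fitted without the block. The fitting steps were also run on counts simulated with spreads estimated from these libraries. No result here rests on that run, which cannot show the effect of libraries that stand apart. Tables and plots used Python 3.11.15, pandas 2.3.3, numpy 2.4.6, scipy 1.17.1 and matplotlib 3.10.9.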

Additional observations from a re-analysis of the deposited data

Results flagged for a closer look

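The genotype effect differed between retina and striatum, by an interaction term in edgeR, for 5 of the 36 genes. Retina minus striatum, it was -1.02 for Pfkfb2 (retina -1.10, striatum -0.11, log2), -0.71 for Slc16a1 (-0.42 and 0.27) and -0.49 for Pfkfb3 (-0.57 and -0.10). It was 0.34 for Dlat (0.38 and 0.01) and -1.56 for Pfkfb1 (-0.75 and 0.77), the last on 5 to 38 counts per library and lost in 17 of 22 alternatives. The rod marker sum, 78198 to 87256 CPM in wt and 26824 to 36208 CPM in R6/1 retina, moved with these differences, and its part in them was not tested.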

How the results depend on the processing

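Of the genes called in the retina, Pfkfb2, Slc16a1, Pfkfb3, Ldha, Pfkp, Aldoc, Idh3a, Dlat and Pdhb kept direction and call at 0.05 in all 16 alternatives, and Tpi1, Eno1, Pkm and Pgam1 kept their direction but lost the call in 2, 2, 4 and 6. Retinal counts were 6 to 9 lower and 3 to 5 higher with 1 library left out, where 15.3% to 21.9% of all genes were called. Library totals gave 10 higher, with 32.1% of all genes called, and a threshold of 0.01 left 6 lower and 3 higher. In the striatum 1 gene lower became 3 with the replicate block, 2 in 1 fit of all 12 libraries and 5 without both libraries numbered 2. Of all genes, 9.94%, 7.77% and 16.5% were called in these settings, against 1.45% in the main fit. The count lower was 0 at a threshold of 0.01 and 0 to 4 with 1 library left out, where 0.00602% to 11.6% of all genes were called. The striatal count of 0 higher became 1 with the replicate block, 2 without both libraries numbered 2 and 0 to 2 with 1 library left out. Differences between tissues were 7 lower and 3 higher with DESeq2 (10.3% of all genes called), 2 higher with library totals (7.58%) and 3 higher without both striatal libraries numbered 2 (13.8%). They were 2 lower and 0 higher at 0.01, and 3 to 4 lower and 1 to 4 higher with 1 library left out (4.9% to 12.8%). With the replicate block the retina gave 10 lower and 4 higher (22.8% of all genes called) and the difference 3 lower and 1 higher (7.13%), Hk2 being gained and Pfkfb1 lost (adjusted p = 0.0800), and between wt tissues Pfkfb4 was lost. Retinal libraries did not each correlate best with their own number. Pdk1 turned from 0.26 between wt tissues to -0.12 between R6/1 tissues. The cause of these changes was not tested beyond the smaller number of libraries or the stricter threshold. Of the members that did not pass, 7 of 23 in the retina, 17 of 35 in the striatum and 4 of 31 for the difference changed sign in at least 1 alternative. A single fit of all 12 libraries gave no separate value for the difference, which was fitted on them already. Depth limits Pfkfb1, with 5 to 38 counts per library, and Hk2 in the striatum, with 63 to 108.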

Other observations

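In R6/1 retina 2, the library with high Eno3, other genes of the wider list were also high. Pgam2, the muscle phosphoglycerate mutase, was at 4.12 CPM there against 0.0546 and 0.0554 CPM in the other R6/1 retinas, Pdk4 at 5.40 against 0.273 and 0.499 CPM, and Pck1, phosphoenolpyruvate carboxykinase, at 1.49 CPM against a listed 0 in both. Slc2a4, the insulin-regulated glucose transporter GLUT4, was at 2.42 against 0.491 and 0.388 CPM. None of these genes was called in the retina.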
